A study of Rattus norvegicus with 8 samples.

Results

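Activins and their relatives are secreted dimers of the TGF-beta superfamily. They are built from inhibin beta subunits: Inhba encodes the subunit of activin A, Inhbb that of activin B, and Inhbc and Inhbe encode subunits made chiefly by hepatocytes. A dimer binds a type II receptor such as that encoded by Acvr2a, which recruits and activates a type I receptor, and the type I receptor phosphorylates SMAD proteins that act in the nucleus. Follistatin (Fst) binds activin and keeps it from its receptors, and Smad7 is an inhibitory SMAD that is itself induced by signalling. Activin A is known in liver as a brake on hepatocyte growth.

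The family described here has 8 genes: Inhba, Inhbb, Inhbc, Inhbe, Fst, Acvr2a, Acvr1 and Smad7. They were represented by 14 of the 31042 probe sets tested and are 8 of 14217 named genes. A probe set was taken where its annotation names exactly 1 gene and that gene is a member. The family was chosen by measured values, the signal of Inhba having been seen to differ between the diets in these same arrays. The diet differences of the members are therefore given as a description, and no p of a member for this contrast is used as support.

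The data were liver arrays of 8 male Sprague-Dawley rats aged 7 weeks, 4 per diet, 1 Affymetrix 3′ array per rat. By the design text, rats of both groups (11 per group, of which 4 had arrays here) ate, for 2 weeks, CRF-1 chow enriched with cholesterol (10 g per kg) and cholic acid (5 g per kg), and the L. brevis group had freeze-dried live Lactobacillus brevis 119-2 in that diet as well, at 10 g per kg. For control livers the sample labels mention CRF-1 without these additions, and the design text was followed. Levels are the authors' log2 values, and every difference has the control subtracted from L. brevis.

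Array medians ran from 6.61 to 6.63, but they could hardly differ, since most probe sets held a single value on all arrays. The summed signal of 9 measured hepatocyte markers ran from 16.85 to 16.89 over all 8 arrays. Of these markers 7 varied, while Alb and Serpina1 held a single value on all arrays, which narrows the range of the sum. Skeletal muscle markers set the liver of L. brevis rat 2 apart, at a summed log2 signal of 13.00 against 9.37 to 9.48 in the other 7, and blood markers were highest there too (14.42 against 11.49 to 13.05). The array's control probe sets for the 2 ends of GAPDH had 10.55 to 10.74 in control and 10.51 to 10.65 in L. brevis livers at the 3′ end, and 7.69 to 8.91 and 8.45 to 9.85 at the 5′ end, overlapping at both. The 5′ minus 3′ signal of GAPDH is used as a measure of how far RNA and labelled product extend toward the 5′ end. It was -2.93 to -1.83 in control and -2.20 to -0.68 in L. brevis livers. Means were -2.41 ± 0.59 and -1.28 ± 0.66 (SD), and only L. brevis rat 1 lay within the control range. Diet and this signal are thus partly confounded, and a fit with the signal as covariate cannot separate them cleanly. Only 6323 of the 31042 probe sets varied by more than 0.01 over the 8 arrays, and the others held a single value, from which no difference can be measured.

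Of the 14 member probe sets 5 varied, 1 each for Inhba, Inhbc, Inhbe, Acvr1 and Smad7. The other 9 did not, so that nothing can be said of a diet difference for Inhbb (6.04 on all arrays), Fst (6.22 and 6.31 at its 2 probe sets) or Acvr2a (7.59). A second probe set of Inhba, the one annotated with its RefSeq transcript, held 7.30 throughout, as did 2 further ones of Acvr1 (7.72 and 6.36) and 2 of Smad7 (5.83 and 6.46) at their own levels. All that follows on Inhba thus rests on 1 probe set, 1383486_at, for which the annotation gives the gene but no accession. Signals of different probe sets cannot be ranked against each other, so the levels of the subunits are not compared.

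The results turn on the subunit genes Inhba, Inhbc and Inhbe, and the 250 bases before the transcription start of each are shown. Inhbc and Inhbe neighbour each other on chromosome 7 and had opposite patterns across the rats. Those patterns followed the GAPDH 5′ minus 3′ signal of the arrays, as given below. A link between them and these bases was not tested. The sequences are from RefSeq's table on build GRCr8, in which 6 of the 8 members have an entry. Inhba lies at chr17:53804509-53804758, Inhbc at chr7:65082920-65083169 and Inhbe at chr7:65064520-65064769, all on the minus strand, and each is printed in the gene's own direction. Capitals mark matches to the motifs searched.
Inhba: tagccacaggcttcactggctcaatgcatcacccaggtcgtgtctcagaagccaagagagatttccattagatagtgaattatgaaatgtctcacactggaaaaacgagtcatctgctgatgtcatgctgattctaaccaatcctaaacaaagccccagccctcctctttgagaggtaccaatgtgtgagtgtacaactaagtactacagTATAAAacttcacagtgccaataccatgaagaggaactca
Inhbc: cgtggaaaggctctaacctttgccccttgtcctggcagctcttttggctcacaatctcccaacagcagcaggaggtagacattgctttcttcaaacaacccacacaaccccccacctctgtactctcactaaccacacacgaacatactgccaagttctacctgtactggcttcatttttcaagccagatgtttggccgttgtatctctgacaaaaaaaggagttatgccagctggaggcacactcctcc
Inhbe: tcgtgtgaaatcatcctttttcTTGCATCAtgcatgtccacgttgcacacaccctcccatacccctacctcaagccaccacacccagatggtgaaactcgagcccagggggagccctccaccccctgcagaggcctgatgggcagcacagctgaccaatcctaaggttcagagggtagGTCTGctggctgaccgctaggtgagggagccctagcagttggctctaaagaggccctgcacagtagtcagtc

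The 5 motifs were searched on both strands. The SMAD box was searched as CAGAC, which is short and found in 42.9% of 33469 promoter windows of this length. The AP-1 site was searched as TGANTCA and occurs in 6.34% of windows. For the cAMP response element the letters were TGACGTCA, present in 1.59%. The element bound by ATF and C/EBP factors when amino acids are short was taken as TGATGNAA, present in 3.40%. The TATA box was searched as TATAAA, present in 12.9%. Inhba had only the TATA box, from 40 bases before the start. Inhbe had the ATF and C/EBP element on the other strand, from 228 bases before the start, and a SMAD box, also on the other strand, from 72 bases before it. None of the 5 was found in the Inhbc window, which says only that these letters are not there.

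Signal of the activin A subunit gene Inhba was lower in all 4 L. brevis livers than in any control liver. Control rats 1 to 4 had 8.49, 8.53, 8.52 and 8.29, and L. brevis rats 1 to 4 had 7.77, 7.91, 7.74 and 7.55. The lowest control value, rat 4, and the highest L. brevis value, rat 2, were 0.38 apart. Group means were 8.46 ± 0.11 and 7.74 ± 0.15 (SD, n = 4 each), a difference of -0.71 (SE 0.09) or 1.64-fold lower. Of the variance of Inhba over the 8 arrays 90.8% lay between the diets, and its SD within diets, 0.13, was smaller than the median of 0.22 over varying probe sets.

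Inhba was the only one of the 5 varying members whose diets did not overlap, and 11.3% of all varying probe sets had no overlap. By limma, 0 of the 14 member probe sets had an adjusted p under 0.05, as against 0.142% of all probe sets and 0.0633% in a fit to the varying ones alone, and 1 of the 5 varying members, Inhba, had an unadjusted p under 0.05, where 22.9% of all varying probe sets did. Of the 44 probe sets behind the 0.142% only 7 varied, so most of that share comes from probe sets without a measurable difference. Since this contrast chose the family, nothing is read from the counts of members. Once the GAPDH end signal entered the fit as a covariate, the difference of Inhba was -0.61 (SE 0.13), and without L. brevis rats 3 and 4, which had the highest such signal, it was -0.62 (SE 0.09). Without L. brevis 2, the liver with muscle and blood signal, it was -0.77, and the other varying members stood at +0.50 (Inhbc), +0.10 (Inhbe), +0.18 (Acvr1) and -0.41 (Smad7).

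**Figure D1:**
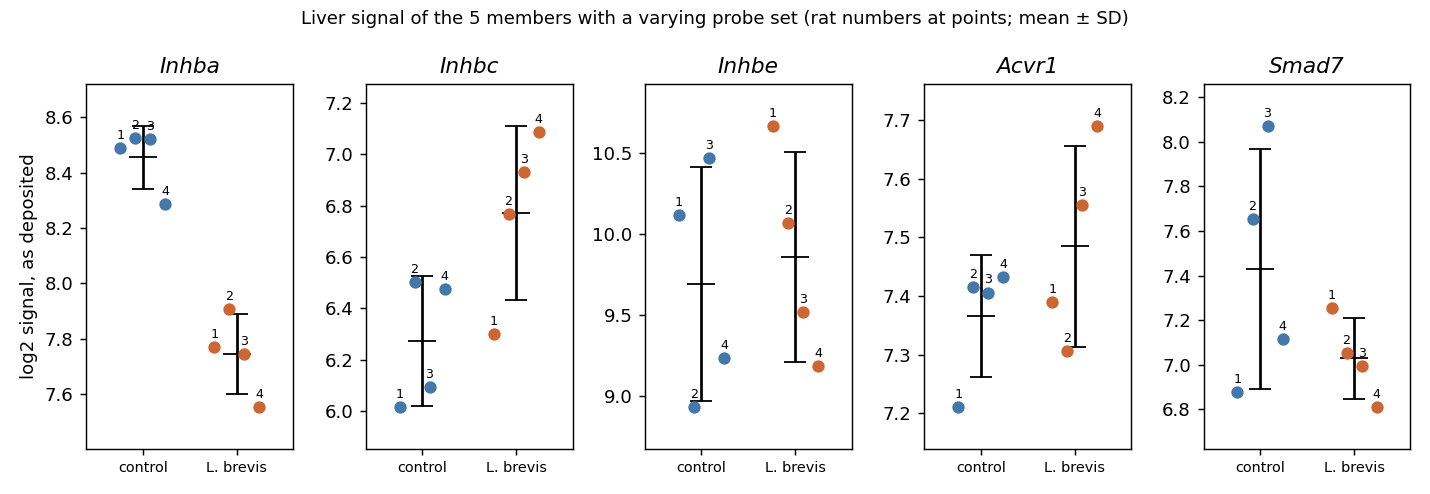
Log2 signal (y axis, own scale per gene) of the 5 varying member probe sets in control and L. brevis livers, each point 1 rat with its number, bars mean ± SD of 4 rats. Only Inhba has no overlap between diets, with controls from 8.29 to 8.53 and L. brevis rats from 7.55 to 7.91.

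Inhbc, a hepatocyte subunit, leaned the other way. Its signal was 6.02, 6.50, 6.09 and 6.47 in control rats 1 to 4 and 6.30, 6.77, 6.93 and 7.09 in L. brevis rats 1 to 4. Only L. brevis rat 1 lay within the control range, while the other 3 were above it. The signal was low, with all 4 control rats and L. brevis rat 1 below the array medians of 6.61 to 6.63. The means of 6.27 ± 0.25 and 6.77 ± 0.34 (SD, n = 4 each) differed by +0.50 (SE 0.21). With the GAPDH signal as a covariate that difference was -0.04 (SE 0.04), and without L. brevis rats 3 and 4 it was +0.26 (SE 0.23).

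Inhbe, the other hepatocyte subunit, varied most among rats. Control rats 1 to 4 had 10.11, 8.93, 10.47 and 9.24, and L. brevis rats 1 to 4 had 10.67, 10.06, 9.52 and 9.18. The diets overlapped over nearly their whole span, with means of 9.69 ± 0.72 and 9.86 ± 0.65 (SD, n = 4 each), a difference of +0.17 (SE 0.48) and 2.02% of the variance between diets. Its SD within diets of 0.69 was larger than that of 93.5% of varying probe sets. With the GAPDH covariate the difference of Inhbe was +1.38 (SE 0.17), and without L. brevis rats 3 and 4 it was +0.68 (SE 0.56). Because that covariate itself differed between the diets, the value of +1.38 is not a clean correction.

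Inhbe and Inhbc followed the 5′ minus 3′ signal of the arrays within each diet, in opposite directions. These relations were looked for after the covariate had been seen to move both genes. Over the 8 rats, as deviations from the diet means, Inhbc had r = 0.99 and rho = 0.98 with the GAPDH signal (exact permutation p = 0.00347 and 0.0139), and Inhbe had r = -0.97 and rho = -0.98 (exact permutation p = 0.00174, the smallest that 576 arrangements within diets can give, and 0.00347). In either diet alone r was close to this, 0.99 and 1.00 for Inhbc and -0.98 and -0.98 for Inhbe, with 4 rats each. Without control 3 and L. brevis 4, the rats farthest from the median of the GAPDH signal, r was 1.00 and -0.98. Among varying probe sets 0.0791% had an r with the GAPDH signal of at least the size of Inhbc and 0.411% of at least that of Inhbe.

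The 5′ minus 3′ signal of beta-actin, -3.89 to -3.00 in control and -3.50 to -1.86 in L. brevis livers, gave like values. It had r = 0.93 with that of GAPDH, 0.95 with Inhbc and -0.87 with Inhbe (exact permutation p = 0.00694, 0.00694 and 0.0139). Inhbc and Inhbe had r = -0.94 and rho = -0.95 with each other (exact permutation p = 0.00521 and 0.0104, r = -0.93 without control 2 and L. brevis 1). These relations share arrays and are not independent of one another. Of the 21 relations among the 5 members and both control signals, these 6 had an adjusted p under 0.05 for r, from 0.0292 to 0.0486, and none did for rho, where the lowest adjusted exact p was 0.0729. The part of RNA or labelling quality in the Inhbc and Inhbe values was not tested beyond this.

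Inhba, by contrast, had r = -0.46 and rho = -0.36 with the GAPDH signal (exact permutation p = 0.286 and 0.444), and r was -0.10 without control 3 and L. brevis 4. Among varying probe sets 62.0% had an r of at least that size. The p for Inhba misses any threshold at this number of rats and does not show that the gene was free of such a relation.

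**Figure D2:**
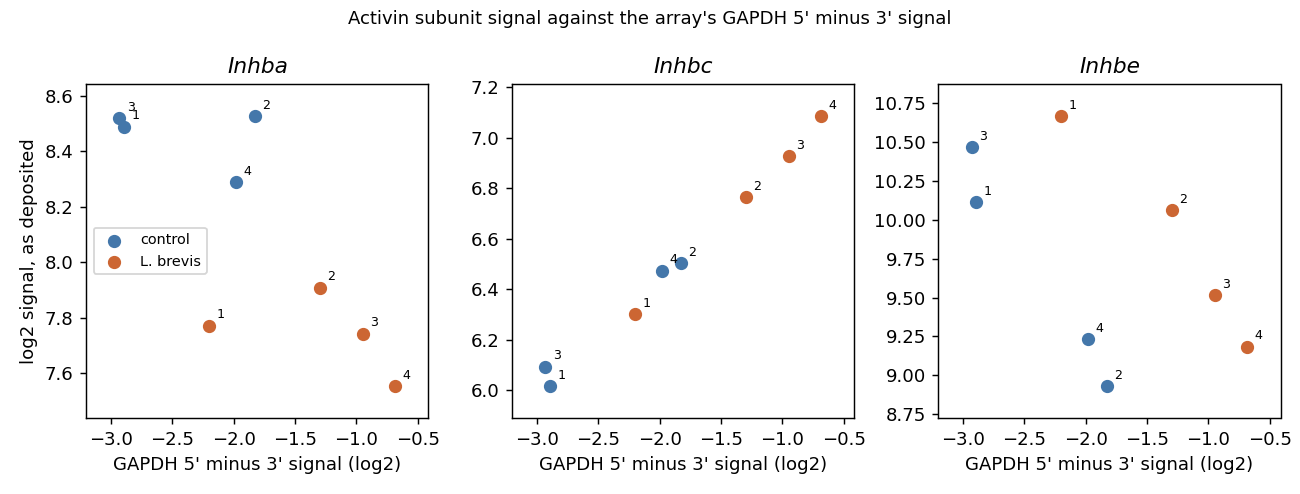
Log2 signal of Inhba, Inhbc and Inhbe (y axes) against the GAPDH 5′ minus 3′ signal of the same array (x axis, log2), each point 1 rat with its number, coloured by diet. Inhbc lies along 1 rising line and Inhbe along a falling line in each diet, with r of 0.99 and -0.97 as deviations from the diet means, whereas Inhba falls into its diets, with r = -0.46.

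Within an array, Inhba stood lower against Inhbc in every L. brevis liver. Inhba minus Inhbc was 2.47, 2.02, 2.43 and 1.81 in control rats 1 to 4 and 1.47, 1.14, 0.81 and 0.47 in L. brevis rats 1 to 4. The means, 2.18 ± 0.32 and 0.97 ± 0.43 (SD, n = 4 each), differed by -1.21, or by -0.57 with the GAPDH covariate. Inhba minus Inhbe overlapped between the diets, from -1.95 to -0.41 in control and from -2.90 to -1.63 in L. brevis livers, with a difference of -0.88 (SE 0.45) that was -1.98 with the GAPDH covariate. These are unequal differences of probe sets, not ratios of transcripts.

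Among the receptors only Acvr1, which encodes the type I receptor ALK2, could be followed, at 1 of its 3 probe sets. Control rats 1 to 4 had 7.21, 7.41, 7.41 and 7.43, and L. brevis rats 1 to 4 had 7.39, 7.31, 7.55 and 7.69. The groups overlapped, although L. brevis rats 3 and 4 lay above all controls. The difference of +0.12 (SE 0.10) between 7.37 ± 0.10 and 7.49 ± 0.17 (SD, n = 4 each) was -0.05 (SE 0.12) with the GAPDH covariate and -0.02 (SE 0.08) without those rats.

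Smad7, the inhibitory SMAD, had 6.88, 7.65, 8.07 and 7.12 in control rats 1 to 4 and 7.26, 7.05, 6.99 and 6.81 in L. brevis rats 1 to 4. Control rats 2 and 3 were above all L. brevis rats, while control rats 1 and 4 lay among them. Means were 7.43 ± 0.54 and 7.03 ± 0.18 (SD, n = 4 each), a difference of -0.40 (SE 0.28) that was -0.19 without control 3, -0.59 without control 1 and -0.20 with the GAPDH covariate.

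**Figure D3:**
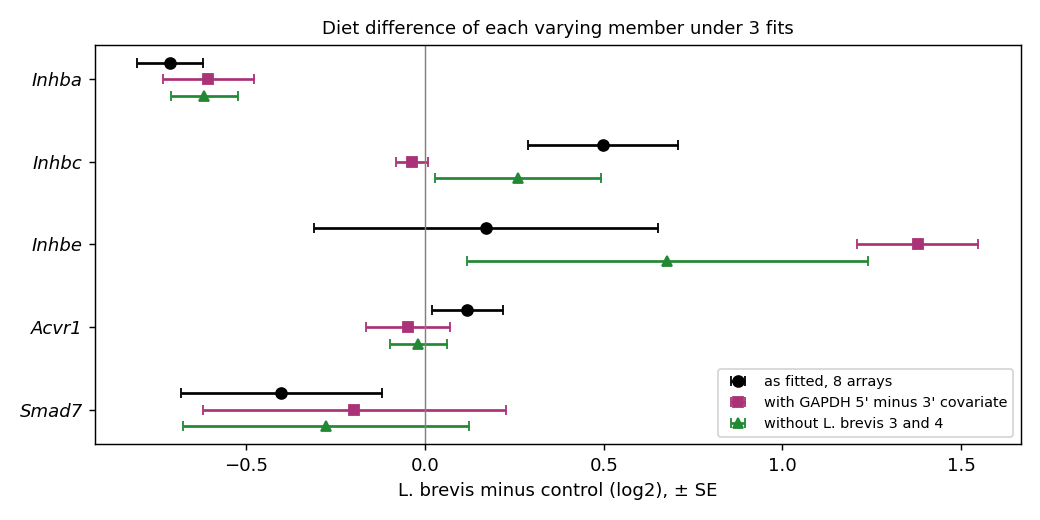
Difference L. brevis minus control (x axis, log2, ± SE) of each varying member in the fit to 8 arrays (circles), with the GAPDH end signal as covariate (squares), and with rats 3 and 4 of the L. brevis diet left out (triangles). Inhba is at -0.71, -0.61 and -0.62, whereas Inhbe is at 0.17, 1.38 and 0.68 and Inhbc at 0.50, -0.04 and 0.26.

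The genes most like a member were sought for the 4 members whose brightest probe set varied, which leaves out Acvr1. By r of deviations from the diet means over 8 rats among 3671 varying genes above the median level, they were for Inhba Pakap (r = 0.96, diet difference -0.54), Tead1, a transcription factor of the Hippo pathway (0.94, -0.23), and Nfil3, a repressor linked to the circadian clock (0.93, -0.96). For Inhbc they were Mrpl50, a mitochondrial ribosomal protein (r = 0.99, +1.05), Tmed10, a cargo receptor of secretory vesicles (0.99, +0.01), and Ube2a, a ubiquitin-conjugating enzyme (0.99, +0.26). For Inhbe they were Ankrd27 (r = 0.99, -0.12), Rab30, a GTPase of the Golgi (0.97, +0.32), and the ETS factor Elk4 (0.97, -0.41). For Smad7 they were Slc34a2, a phosphate transporter (r = 0.98, +0.13), Bmp2, a ligand of the same superfamily (0.97, -0.55), and Nfx1 (0.96, -0.27). With 8 rats and this many genes, high values of r arise in any such ranking.

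The wider pathway was followed through lists of ligands, antagonists, receptors, SMAD proteins and regulators, convertases, SMAD-responsive genes, other hepatokines and integrated stress response genes. Of 128 listed genes 115 were measured and 52 varied, 12 of them higher and 40 lower, with a median of -0.13. Over all 3806 varying genes 1599 were higher and 2207 lower, with a median of -0.04. By limma 0 of the 115 passed the adjusted threshold, where 0.12% of all genes, varying or not, did. At an unadjusted p under 0.05 stood 1 higher and 7 lower, beside 6.91% and 13.7% of all varying genes. The diets did not overlap for 1 of the 52 on the higher and 4 on the lower side, beside 115 and 282 of all 3806 varying genes. Nothing is therefore read from the genes without overlap named below. The 52 split into 17 higher and 35 lower when arrays were centred on varying probe sets. They split 19 to 33 with the GAPDH covariate or without control 2, and 21 to 31 without L. brevis 3 and 4 (median -0.06).

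Of 17 measured ligands other than the members only Bmp1 and Bmp2 varied. Bmp2, a bone morphogenetic protein made by liver endothelium that regulates hepcidin, had 8.39 to 8.88 in control and 7.93 to 8.12 in L. brevis livers. No L. brevis value reached a control value, and the difference was -0.55 (SE 0.12, adjusted p = 0.267 by limma). Bmp1, a protease that processes procollagen and releases ligands from antagonists, stood at -0.52 (SE 0.23, adjusted p = 0.476). Of the antagonists and binding proteins 4 of 17 varied, 2 in each direction. Chordin (Chrd), which sequesters bone morphogenetic proteins, was at -0.49 (SE 0.16, adjusted p = 0.347), and the follistatin-like gene Fstl1 at -0.34 (SE 0.13, adjusted p = 0.389), while the protease gene Htra1 was at +0.07.

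Furin, the convertase that cleaves the precursors of activins and their relatives, was the only one of 4 measured convertases that varied. Its signal was 9.05, 9.06, 9.13 and 9.07 in control rats 1 to 4 and 8.95, 8.85, 8.78 and 8.79 in L. brevis rats 1 to 4. The diets did not overlap, and the difference was -0.24 (SE 0.04, adjusted p = 0.239 by limma). Without L. brevis 1 the difference was -0.27 and passed the threshold (adjusted p = 0.0335), as it did with array weights (-0.28, adjusted p = 0.0446). Those fits called 180 and 77 of all 31042 probe sets, against 44 in the main fit. Furin passed too with array weights over varying probe sets alone, where 1561 were called. No wider pathway gene was called in the main fit or under the other 17 alternatives.

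Other receptors varied in 3 of 8 cases, and no unadjusted p was below 0.05. Bmpr1a stood at +0.10 (SE 0.05), Bmpr2 at -0.18 (SE 0.18) and Tgfbr1 at +0.04 (SE 0.09). Of 20 measured SMAD proteins and regulators 6 varied, 2 higher and 4 lower. Tob1, an antiproliferative protein that binds SMADs, had 10.28 to 10.59 in control and 10.72 to 11.05 in L. brevis livers, without overlap (+0.42, SE 0.10, adjusted p = 0.293). The ubiquitin ligase gene Nedd4l had 8.64 to 9.35 in control and 7.95 to 8.56 in L. brevis livers, also without overlap (-0.52, SE 0.21, adjusted p = 0.428), and Smurf2, of the same family, stood at -0.07 (SE 0.03).

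SMAD-responsive genes had 3 varying members higher and 10 lower, with a median of -0.14. Id4, an inhibitor of basic helix-loop-helix factors, was at -0.95 (SE 0.29, adjusted p = 0.347), with 10.27 to 11.05 in control and 9.15 to 10.29 in L. brevis livers. Atoh8, a target of bone morphogenetic protein signalling in hepatocytes, was at -0.79 (SE 0.28, adjusted p = 0.359), whereas Id2 was at +0.69 (SE 0.32). None of these passed the adjusted threshold.

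Other hepatokines had 2 varying members higher and 14 lower, with a median of -0.09. Lect2, a chemotactic protein secreted by hepatocytes, was at -0.24 (SE 0.06, adjusted p = 0.323), with 11.79 to 11.93 in control and 11.46 to 11.71 in L. brevis livers. Hjv, a co-receptor for bone morphogenetic proteins, stood at -0.36 (SE 0.16) and Angptl6 at -0.30 (SE 0.13). Integrated stress response genes, which include known regulators of Inhbe, had 7 varying members, of which only Nupr1 (+0.39, SE 0.56) was higher, and no unadjusted p was below 0.05. The factor genes Atf4 and Ddit3 (CHOP) were at -0.09 (SE 0.06) and -0.24 (SE 0.18), and Sesn2 at -0.48 (SE 0.35).

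**Figure D4:**
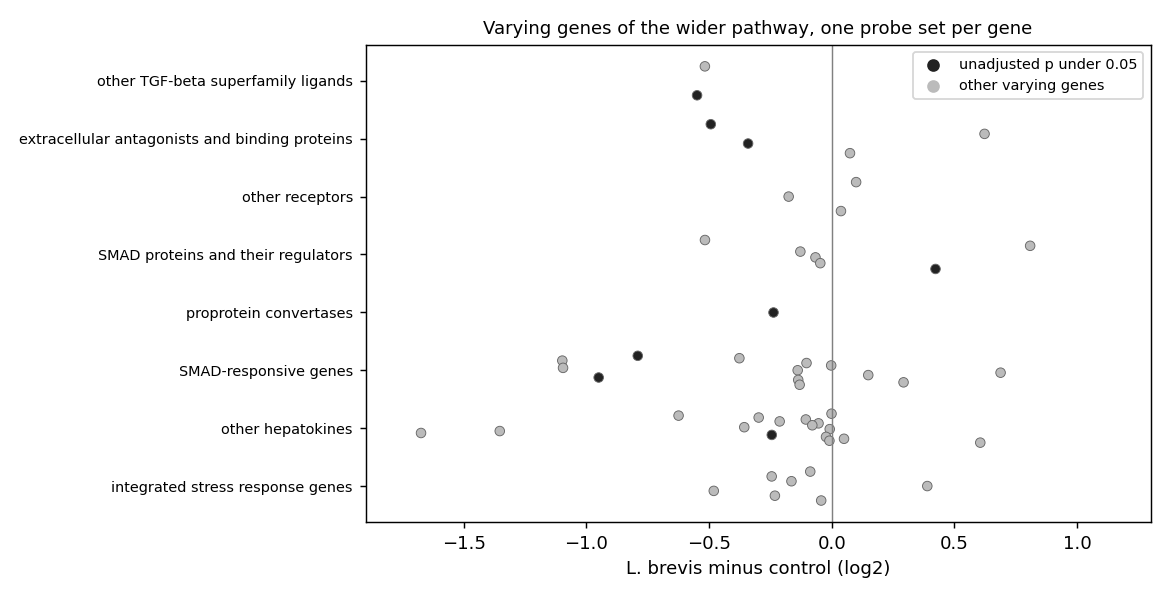
Difference L. brevis minus control (x axis, log2) of the 52 varying genes of the wider pathway by list, 1 point per gene, dark where the unadjusted p is under 0.05. Dark points are 7 on the lower side and 1, Tob1, on the higher side, and none passed the adjusted threshold.

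In whole liver, fewer cells of a type and less RNA per cell cannot be told apart. Stellate cells, a known source of Inhba and Fst, were followed by 10 markers, of which 8 varied, 2 higher and 6 lower. Their summed log2 signal was 12.36 to 12.85 in control and 12.30 to 12.79 in L. brevis livers. Des and Rgs5 held 1 value on all arrays, and the differences of the others ran from -0.42 (Pdgfrb) to +0.35 (Lum), with a median of -0.06. Endothelial markers were lower in all 6 varying of 8 measured, of which Kdr and Pecam1 did not overlap between diets and the other 4 did, with a median of -0.43. Their summed signal was 11.90 to 12.47 in control and 11.74 to 11.85 in L. brevis livers. Emcn and Tek held 1 value on all arrays. Over all 3806 varying genes 2207 were lower and 1599 higher, with a median of -0.04. The diets did not overlap for 282 on the lower and 115 on the higher side. The marker lists were not tested against these shares. The part of endothelial cells in the Inhba or Bmp2 difference was not tested. Kupffer cell and macrophage markers were higher in 6 of 7 varying cases, with a median of +0.12, and Adgre1 (+0.65) was the only one without overlap. They summed to 12.55 to 12.88 in control and 12.59 to 13.02 in L. brevis livers, and C1qa held 1 value on all arrays. Cholangiocyte markers summed to 8.98 to 9.21 and 9.04 to 9.14, but only 2 of 5 measured varied, Epcam and Cldn7. Krt19, Krt7 and Spp1 held 1 value on all arrays. None of 7 measured lymphocyte markers varied, so nothing can be said of a difference in them.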

How the data were processed

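The authors deposited log2 values, 1 per probe set and array, already summarised. Their normalization is not stated by the labels or file header used here. Scan dates and other batches were not analysed here. Per the labels' protocols, Trizol-extracted, column-purified total RNA was labelled with a 3′ in vitro transcription kit. Of 31099 probe sets 57 Affymetrix controls were left out, and 20826 of the rest had exactly 1 gene symbol, 436 several and 9780 none. Symbols were updated through gene identifiers. A gene was represented by its brightest probe set, and for members every probe set was examined. A probe set was called varying when its range over the 8 arrays exceeded 0.01 log2.

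All 31042 remaining probe sets entered 1 linear model of diet in limma 3.58.1 (R 4.3.3), whose eBayes step let the variance depend on intensity. P-values were two-sided and adjusted by Benjamini-Hochberg, and 0.05 was the threshold. The fit was tested on simulated data. Relations between members used exact permutation within diets, two-sided. From each list, up to 3 varying genes with the smallest unadjusted p were named, and per member the 3 genes most like it. Nupr1 and the cell type markers were named after their values were seen. The labels call the samples biological replicates. The number of arrays, 4 per diet, limits the precision. Alternatives changed the probe sets fitted, normalization, variance model, array weights, replicate block, a GAPDH 5′ minus 3′ covariate (statmod 1.5.0 for robust fits) and the rats included. Members and lists were chosen with earlier results of these data known.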

Additional observations from a re-analysis of the deposited data

Results flagged for a closer look

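In 6 of the 58 groups of 4 rats checked, 1 rat lay far from the other 3, where chance gives about 1 in 20. Among members, control rat 4 had the lowest Inhba signal of its diet, 8.29, the other 3 being at 8.49 to 8.53. Control rat 1 had the lowest Acvr1 signal, 7.21, against 7.41 to 7.43. In the wider pathway, L. brevis rat 1 had the highest Chrd signal of its diet, 7.84 against 7.26 to 7.29. Control rat 4 had the lowest Fstl1 signal, 8.39 against 8.86 to 8.91. L. brevis rat 4 had the lowest Nedd4l signal, 7.95 against 8.48 to 8.56. Control rat 1 had the highest Sesn2 signal, 9.25 against 8.03 to 8.19.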

How the results depend on the processing

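Inhba kept its direction under all 20 alternatives, which supports nothing, since much of this was fixed in advance. Leaving out rats cannot turn the sign of a gene whose diets do not overlap. Changing the variance model or the probe sets fitted left its difference at -0.71. The difference was -0.73 with array weights, also over varying probe sets alone, and -0.71 with a replicate block. Since this contrast chose the family, which fits call a member is given as a count and supports nothing. The replicate numbers were not taken to pair the rats, since the labels call them biological replicates and name no pairing. The correlations of same-numbered deviations were 0.359, 0.203, 0.0778 and 0.381, all positive. For 2 of the 4 numbers the control rat was most like the L. brevis rat of the same number. Whether arrays of the same number shared an order or batch was not tested. Leaving out single rats gave -0.77 to -0.65 for Inhba. Member probe sets called were 1 with array weights, where 77 of all 31042 probe sets were called, and 1 with the replicate block, where 128 were. With array weights over varying probe sets alone they were 2, Inhba and Inhbc (+0.60), where 1561 of all 6323 were called. Member probe sets called were 0 under the other 17 alternatives, single rats left out, the GAPDH covariate and the replicate block over varying probe sets included. Signs turned for Inhbe with array weights (-0.043, also over varying probe sets), without control 2 (-0.081) and without L. brevis 1 (-0.099), where leaving out single rats gave up to 0.43, for Inhbc with the GAPDH covariate (-0.036) and for Acvr1 with that covariate (-0.048) or without L. brevis 3 and 4 (-0.018). The cause of these changes was not tested.

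Over all probe sets 44 were called, of which 7 varied. With the GAPDH covariate 31 were called, of which 1 varied, and 484 varying ones had an unadjusted p under 0.05, against 1450 without it. The count was 4 over varying probe sets, 21 over those above the median level and 0 under quantile normalization (1719 varying ones at an unadjusted p under 0.05). It was 4 with median centring, 77 with array weights, 128 with the replicate block, 67 to 180 without single rats and 180 without L. brevis 3 and 4. Over varying probe sets alone it was 0 with the replicate block and 1561 with array weights. Wider pathway genes called were 1 (Furin) with array weights, 0 to 1 without single rats (Furin, without L. brevis 1) and 10 with array weights over varying probe sets. Fits restricted to varying probe sets with a replicate block or array weights, and without L. brevis 3 and 4, were chosen after seeing the data. The method behind values held constant across arrays is unknown, and 9 of 14 member probe sets carry no measured difference. Averaging a member's varying probe sets gave no further value, since each has 1, and Inhbc lies below the median level and has no value in that fit.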
